A study of Mus musculus with 8 samples.

Results

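The genes described here are 7 mouse genes of fat formation: the transcription factor genes Pparg, Cebpa, Cebpb and Cebpd, and the fat cell genes Fabp4, Adipoq and Lpl. Each was represented by a fixed window of 20 to 140 kb in mouse build mm9, 315 kb in all, and a peak was a member if its midpoint lay in a window. Of 88367 peaks in the 6 deposited peak lists, 52 were members: 32 of the 32017 KDM4B peaks of wild-type cells, 20 of the 55306 H3K9me3 peaks of knockout cells, and 0 from each of the other 4 lists.

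The study used chromatin immunoprecipitation sequencing (ChIP-seq) in primary bone marrow-derived mesenchymal stem cells (MSCs), the marrow cells that can give rise to bone, cartilage and fat. The KO cells came from Prx1Cre; Kdm4bf/f mice and the WT cells from Prx1Cre; Kdm4bw/w mice, so both genotypes carried the Cre recombinase, which the Prx1 promoter drives in limb mesenchyme. The labels of the KDM4B libraries give the genotype only as WT or KO. All cells had been in osteogenic induction for 4 hours, so the fat genes were mapped in cells set on a bone-forming course, and the sources used here give neither the age of the mice nor any pooling of animals. KDM4B, H3K9me3 and total histone H3 were each mapped in 1 library of WT and 1 of KO cells. Input chromatin (2 samples) was not analysed here, and with 1 library per antibody and genotype there was no replicate check and no test between genotypes. Peak lists hold no measure of RNA, so the cell type could not be checked against its marker genes.

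KDM4B is an enzyme that demethylates histone H3 at lysine 9, and H3K9me3, the form of that residue with a full set of methyl groups, is a mark of repressed chromatin. Fat formation runs as a relay: C/EBPβ and C/EBPδ, the products of Cebpb and Cebpd, act early and help switch on Pparg and Cebpa, whose products then keep each other active and turn on the genes of the mature fat cell. Those genes include Fabp4, which encodes a carrier of fatty acids, Adipoq, which encodes the hormone adiponectin, and Lpl, which encodes the lipase that frees fatty acids from circulating fat. Marrow MSCs choose between this course and bone formation.

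The upstream sequence of these genes differs in its content of CpG, the pair of bases that is methylated in mouse DNA. Of the 4 genes with a sequence below, only Adipoq had no H3K9me3 KO peak in its window, and 1 lay 0.108 kb outside it. Fabp4 and Lpl also had none, but no sequence was matched for them. A link between CpG content and H3K9me3 was not tested. RefSeq promoter sequences of build GRCm38.p6 were matched by symbol for Cebpa, Cebpb, Pparg and Adipoq, which is 4 of the 7 genes, with 6 start sites. Each sequence below is the 250 bases before a start site, all on the plus strand, 5′ to 3′, with every CpG in capitals. Their GRCm38.p6 positions are chr2:167688665-167688914 for Cebpb, chr7:35119043-35119292 for Cebpa, chr6:115360894-115361143 for the lowest-coordinate Pparg start, chr6:115421816-115422065 for the highest-coordinate Pparg start and chr16:23146286-23146535 for Adipoq. They cannot be set against the mm9 peak positions, so whether a peak covered a promoter was not determined.
Cebpb: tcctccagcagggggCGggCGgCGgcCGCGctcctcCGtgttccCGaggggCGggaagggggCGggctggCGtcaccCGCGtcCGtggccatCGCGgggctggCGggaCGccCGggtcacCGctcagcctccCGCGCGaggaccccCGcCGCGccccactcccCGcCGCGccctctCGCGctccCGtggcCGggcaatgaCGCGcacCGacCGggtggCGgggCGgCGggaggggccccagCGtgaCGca
Cebpa: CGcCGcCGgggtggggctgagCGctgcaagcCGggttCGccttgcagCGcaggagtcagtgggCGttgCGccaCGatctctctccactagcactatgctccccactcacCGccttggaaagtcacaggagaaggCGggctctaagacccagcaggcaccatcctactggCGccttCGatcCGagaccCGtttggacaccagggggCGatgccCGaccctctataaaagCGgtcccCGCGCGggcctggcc
Pparg, lowest start: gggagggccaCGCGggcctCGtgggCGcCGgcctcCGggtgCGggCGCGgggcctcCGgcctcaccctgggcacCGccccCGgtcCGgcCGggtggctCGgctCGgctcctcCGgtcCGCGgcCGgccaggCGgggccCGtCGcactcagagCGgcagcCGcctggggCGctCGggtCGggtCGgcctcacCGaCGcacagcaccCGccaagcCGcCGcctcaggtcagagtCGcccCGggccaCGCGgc
Pparg, highest start: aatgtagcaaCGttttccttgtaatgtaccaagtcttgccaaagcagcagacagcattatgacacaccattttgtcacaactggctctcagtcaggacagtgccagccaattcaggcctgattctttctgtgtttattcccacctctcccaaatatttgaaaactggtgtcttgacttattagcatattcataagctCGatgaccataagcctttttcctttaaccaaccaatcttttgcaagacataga
Adipoq: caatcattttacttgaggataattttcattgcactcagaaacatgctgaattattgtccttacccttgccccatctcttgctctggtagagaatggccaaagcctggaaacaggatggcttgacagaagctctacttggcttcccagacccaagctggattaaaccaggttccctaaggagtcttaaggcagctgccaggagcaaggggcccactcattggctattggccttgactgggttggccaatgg

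The Cebpb sequence held 41 CpG in its 250 bases, a number reached by 1.09% of the 32851 promoter sequences in the table. The lowest Pparg start held 38, reached by 1.88% of promoters, and the Cebpa sequence held 22, reached by 14.8%. The Adipoq sequence held 0, against a median of 6 over all promoters. Pparg is transcribed from several starts, an upstream one for the widely expressed form of the protein and a downstream one for the form restricted to fat. Its 3 listed starts held 38, 12 and 2 CpG in order of coordinate. CG reads the same on both strands, so a count on 1 strand covers both. These counts describe the letters only.

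KDM4B peaks of WT cells were found in the windows of 6 of the 7 genes and covered 34.6 kb, or 10.97% of the 315 kb. The 32 peaks (95% exact Poisson interval 21.9 to 45.2) were 8.15 times (5.57 to 11.5 times) the 3.93 that the mean density of the whole list would place there. The KO list had 0 KDM4B peaks in any window, and since it holds only 35 peaks in all, its mean density would place 0.00429 there. Of the 31 whole tiles of 10 kb inside the windows, 14, or 45.2%, held a WT KDM4B peak, against 7.37% of all 256771 such tiles of the genome, and 0 held a KO peak, against 0.00740%. The genome's tiles include long stretches without genes. The stretches of equal width on either side of the windows had 0.571 WT peaks per 10 kb, against 1.02 in the windows, a ratio of 1.78. Lpl carried much of this, with 3.25 per 10 kb in its window against 0.5 beside it, and without Lpl the ratio was 1.19. Cebpb, with 1.33 against 1.67, and Adipoq, with 1.00 against 1.33, had lower values than their surroundings. Their window values rest on only 4 peaks (1.09 to 10.2) and 3 peaks (0.619 to 8.77). The intervals take in counting error alone, and peaks close to each other share their source.

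H3K9me3 was called in 4 of the 7 windows in KO cells, at 20 peaks (12.2 to 30.9) covering 5.80 kb, or 1.84% of the windows. WT cells had 0 H3K9me3 peaks there, and the nearest lay 459.5 to 2035 kb from a window. The WT list is short, at 943 peaks, and its mean density would place 0.116 peaks in the windows, so a count of 0 is what most stretches of this size would give. The KO count was 2.95 times (1.80 to 4.55 times) the 6.78 given by the KO list's own mean density. Of the 31 tiles, 7, or 22.6%, held a KO peak, against 12.3% of tiles genome-wide, and 0 held a WT peak, against 0.215%. With tiles of 20 kb the shares were 28.6% for KO H3K9me3, against 19.2% genome-wide, and 71.4% for WT KDM4B, against 12.2%. None of the 20 KO peaks overlapped a WT H3K9me3 peak, against 0.788% of the KO list. The stretches beside the windows had 0.603 KO peaks per 10 kb, against 0.635 in the windows, a ratio of 1.05. By gene, Cebpa had 2.67 in its window against 1.33 beside it and Cebpd 0.8 against 0.4, whereas Pparg had 0.143 against 0.429. These window values rest on few peaks: 8 at Cebpa (3.45 to 15.8), 2 at Cebpd (0.242 to 7.22) and 2 at Pparg (0.242 to 7.22). Leaving out each window in turn gave ratios from 0.8 without Cebpa to 1.38 without Pparg. The depth of the H3K9me3 libraries is not known, and its part in the difference between genotypes was not tested. Total H3 had 0 peaks in every window in both genotypes, against 0.00974% of tiles in WT and 0.00896% in KO.

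**Figure D1:**
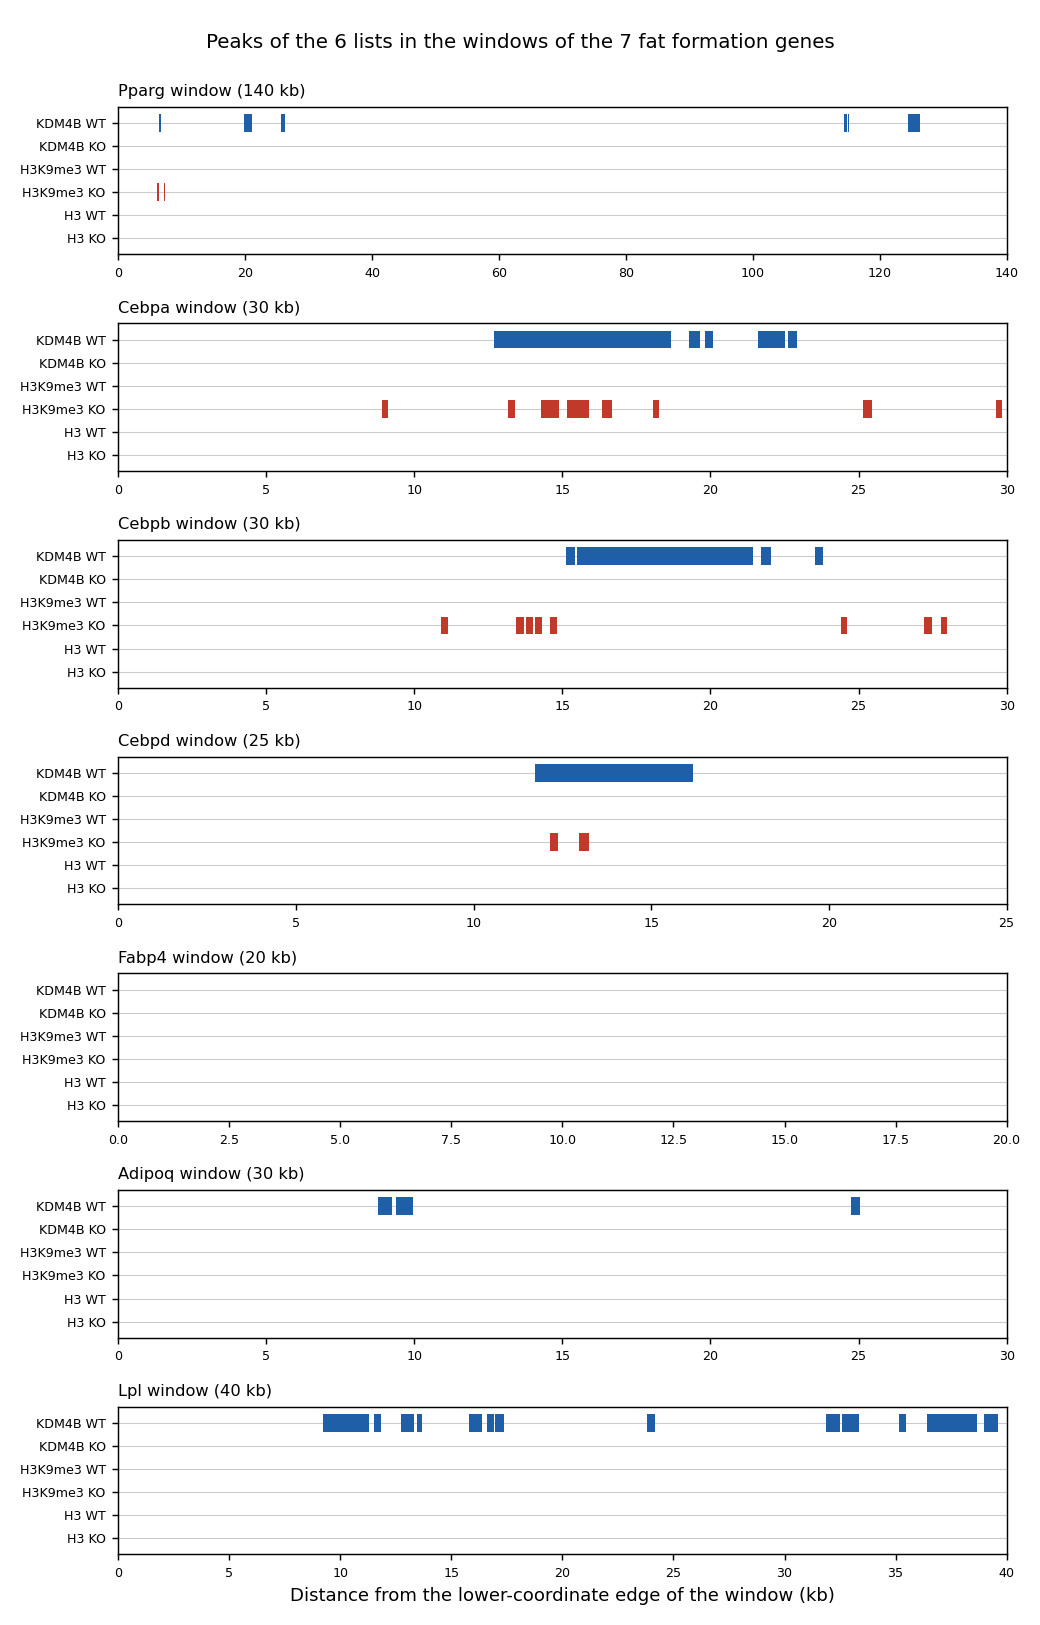
Peaks of the 6 lists in the 7 windows, drawn to scale, with the distance from the lower-coordinate edge of each window in kb on the x axis (the scale differs between windows) and 1 row per list. KDM4B WT peaks (blue) lie in 6 windows and H3K9me3 KO peaks (red) in 4, and the other 4 rows are empty throughout.

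The genes showed 4 patterns. The C/EBP genes had wide KDM4B domains, and H3K9me3 KO peaks in the same windows. At Cebpb, however, 0 of the 8 KO peaks overlapped KDM4B, and their density was 2.67 per 10 kb against 2.33 beside the window. Cebpd had only 2 KO peaks. Pparg had scattered KDM4B peaks and H3K9me3 at 1 place. Adipoq and Lpl had KDM4B and no H3K9me3, and Fabp4 had neither. Over the 85 kb of the C/EBP windows there were 10 KDM4B WT peaks and 18 H3K9me3 KO peaks, or 1.18 (0.564 to 2.16) and 2.12 (1.26 to 3.35) per 10 kb. Over the 90 kb of Fabp4, Adipoq and Lpl there were 16 and 0, or 1.78 (1.02 to 2.89) per 10 kb of KDM4B, and an H3K9me3 density for which a count of 0 allows up to 0.333 per 10 kb. The KO list's mean density would place only 0.431 H3K9me3 peaks at Fabp4, 0.646 at Adipoq and 0.861 at Lpl, so this 0 says little. Cebpa and Cebpb held 8 each of the 18 H3K9me3 peaks, and a KO peak lay 0.108 kb outside the Adipoq window. The intervals take in counting error alone, and peaks of a locus are not independent. They therefore do not compare the groups. Whether the groups follow place in the relay was not tested. Cebpa and Pparg, which share a step, had 2.67 and 0.143 H3K9me3 KO peaks per 10 kb, from 8 and 2 peaks. The grouping was made with these counts known, so it is a description and no test.

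**Figure D2:**
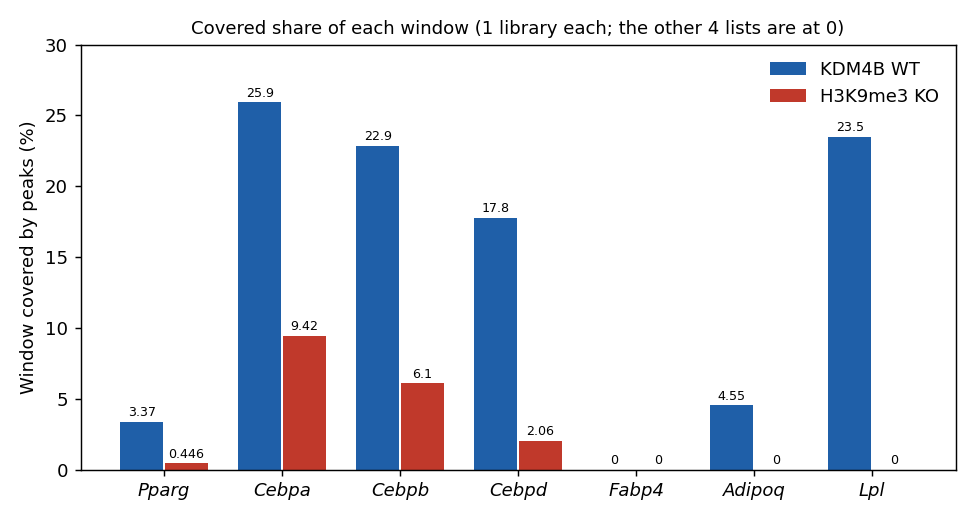
Share of each window covered by KDM4B WT peaks (blue bars) and H3K9me3 KO peaks (red bars), in percent, 1 library each and hence no error bars. KDM4B covered 17.8 to 25.9% of the Cebpa, Cebpb, Cebpd and Lpl windows, while H3K9me3 reached 9.42% at Cebpa and 0 at Fabp4, Adipoq and Lpl.

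Cebpb and Cebpd encode the factors that open the relay, and each carried a KDM4B domain several times wider than the usual peak. At Cebpd a single KDM4B WT peak on chromosome 16 from 15886722 to 15891169 spanned 4448 bp. It made up all of the length covered by KDM4B peaks in the window, 17.8% of its 25 kb. At Cebpb the widest of 4 peaks lay on chromosome 2 from 167515498 to 167521421 and spanned 5924 bp. The median KDM4B WT peak was 509 bp wide. Only 246 of the 32017 peaks were as wide as the Cebpd domain, or 0.768%, and 131 as wide as the Cebpb domain, or 0.409%.

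The Cebpb domain was flanked closely by smaller KDM4B peaks. A peak of 300 bp from 167515134 to 167515433 preceded it at a gap of 64 bp, and peaks of 365 bp from 167521694 to 167522058 and of 273 bp from 167523515 to 167523787 followed it. Together the 4 peaks covered 79.3% of the 8.65 kb they span, and 30 kb tiles with at least 4 KDM4B WT peaks were 2.83% of the genome's. For Cebpd, 14.2% of 25 kb tiles held at least 1, so at that gene it was the width of the peak and not the number that was unusual.

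H3K9me3 in KO cells was placed differently at these early factors. At Cebpd, 2 peaks of 237 and 277 bp, from 15887152 to 15887388 and from 15887979 to 15888255, lay wholly inside the KDM4B domain and covered 11.6% of it. At Cebpb there were 8 peaks of 199 to 261 bp, and 0 of them overlapped a KDM4B peak. They lay on both sides of the domain, 5 on the lower-coordinate side and 3 on the higher, and the gap of 9605 bp between them held all 4 KDM4B peaks. The closest came within 332 bp of a KDM4B peak and 696 bp of the domain itself. The widest, at 261 bp, lay from 167513449 to 167513709 and from 167527204 to 167527464. Of the KO list, 48.1% was at least 261 bp wide, and the median width was 256 bp. Tiles of 30 kb with at least 8 KO peaks were 1.48% of the genome's, and tiles of 25 kb with at least 2, as at Cebpd, were 11.4%.

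Cebpa encodes C/EBPα, which together with PPARγ keeps the fat cell state. Its window held 5 KDM4B WT peaks, of which the widest, on chromosome 7 from 35902704 to 35908663, spanned 5960 bp, a width reached by 128 of the 32017 peaks, or 0.3998%. The other 4 lay within the next few kb, from 35909277 to 35909649, from 35909823 to 35910075, from 35911606 to 35912503 and from 35912635 to 35912926, with widths of 253 to 898 bp. The 5 peaks covered 7.78 kb, or 25.9% of the window, the highest share of the 7 genes. At least 5 such peaks were found in 1.81% of 30 kb tiles.

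Among the 7 genes, the Cebpa domain shared the most bp between KDM4B peaks of WT cells and H3K9me3 peaks of KO cells. These lists come from different genotypes, and in KO cells the window had 0 KDM4B peaks. Of 8 H3K9me3 KO peaks in the window, 5 lay wholly inside the domain and covered 2063 bp, or 34.6%, of it. They included the 2 widest H3K9me3 peaks of all 7 windows, of 715 bp from 35905171 to 35905885 and of 575 bp from 35904294 to 35904868. A width of 715 bp was reached by 2.27% of the KO list and one of 575 bp by 5.46%. The remaining 3 peaks were 220, 321 and 223 bp wide and lay 2.21 to 6.71 kb from the nearest KDM4B peak.

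The widest peaks of the C/EBP windows held 16.3 kb, or 47.3%, of the KDM4B sequence covered in all 7 windows. KDM4B WT peaks of 4 kb or more, a limit set after these widths were seen, numbered 309, or 0.965% of the list. H3K9me3 KO peaks overlapped 74.1% of those 309, so the overlap at 2 of the 3 C/EBP domains was near the share for wide domains in general.

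**Figure D3:**
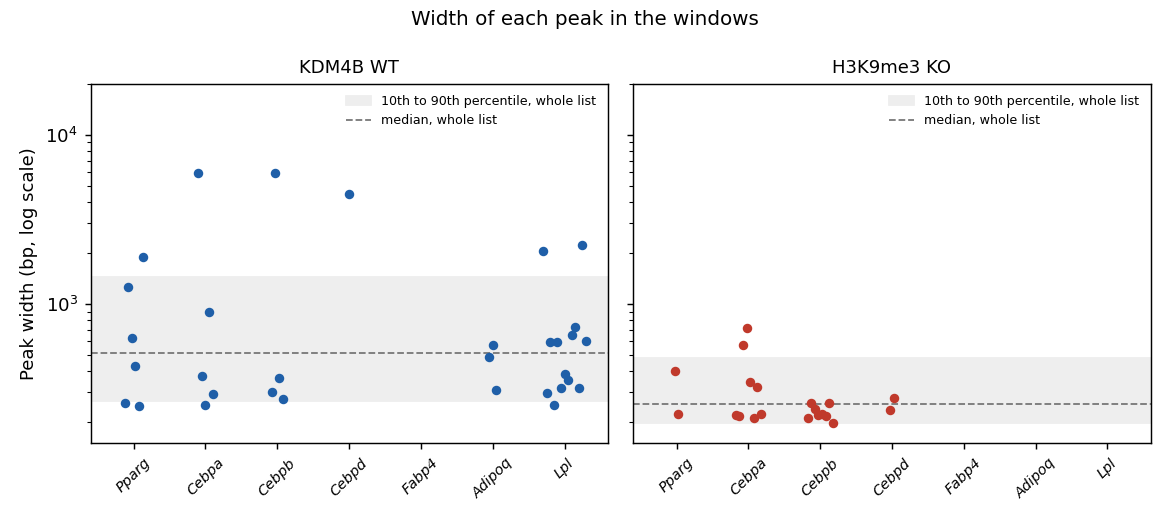
Width in bp (log axis) of every KDM4B WT peak (left) and H3K9me3 KO peak (right) in each window, with the median (dashed) and the 10th to 90th percentile (grey) of the whole list. The 3 C/EBP domains stand at 4448 to 5960 bp, above the 90th percentile of 1446 bp, and the widest H3K9me3 peak is the 715 bp peak at Cebpa.

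Pparg encodes PPARγ, the nuclear receptor that is required for fat cells to form. Its window, the widest at 140 kb, held 6 KDM4B WT peaks of 250 to 1895 bp covering 4.71 kb, or 3.37%. They formed 2 groups of 3, the first between 6.42 and 26.2 kb from the lower edge of the window and the second between 114 and 126 kb, with 88.2 kb between them. The widest, from 115429448 to 115431342 on chromosome 6, belonged to the second group, and 1796 peaks of the list, or 5.61%, were as wide. At least 6 KDM4B peaks were found in 10.0% of 140 kb tiles.

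H3K9me3 at Pparg was limited to 2 KO peaks in the lower group, of 400 bp from 115311082 to 115311481 and of 224 bp from 115312175 to 115312398. The first shared 66 bp with the KDM4B peak from 115311416 to 115311675, and the second lay 0.499 kb from it. The other 5 KDM4B peaks of the window were 12.4 to 29.8 kb from any KO H3K9me3 peak. The count of 2 was 0.663 times what the KO list's mean density gives for 140 kb, and 35.4% of tiles of that width held at least as many.

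Lpl had the most KDM4B peaks of the 7 genes and no H3K9me3. Its 40 kb window held 13 KDM4B WT peaks (6.92 to 22.2) of 251 to 2233 bp, which covered 9.39 kb, or 23.5%. This was 26.1 times the number at the mean density of the list, and 148 of 64185 tiles of 40 kb, or 0.231%, held as many. The peaks extended over 30.4 kb and were spread along it: the widest, on chromosome 8 from 71431423 to 71433655, held 23.8% of the covered length, whereas the widest peaks at Cebpa and Cebpb held 76.6 and 86.3%. A second peak of 2047 bp, from 71404230 to 71406276, stood at the other end of the series.

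H3K9me3 KO peaks were absent from the Lpl window, and the nearest lay 76.9 kb outside it. Each of the 13 KDM4B peaks was 86.1 to 116 kb from the nearest one, against a median of 4.20 kb for all KDM4B WT peaks. At the mean density of the KO list 0.861 peaks would fall in 40 kb. Among the 148 tiles at least as rich in KDM4B, 27, or 18.2%, also held 0 KO H3K9me3 peaks, so such a tile was in the minority but not rare.

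Adipoq showed the same combination with fewer peaks. Its 3 KDM4B WT peaks lay on chromosome 16 from 23143773 to 23144254, from 23144372 to 23144945 and from 23159757 to 23160064, with widths of 482, 574 and 308 bp. The first pair was 117 bp apart, and the third stood 14.8 kb further on. They covered 4.55% of the 30 kb window, and 4.65% of tiles of that width held at least 3. No KO H3K9me3 peak had its midpoint in the window, although 1 lay 0.108 kb beyond its upper edge, 5.04 kb from the third KDM4B peak. Of 3980 tiles with at least 3 KDM4B peaks, 27.6% held 0 KO H3K9me3 peaks.

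Fabp4 had no peak of any list in its 20 kb window. The nearest KDM4B WT peak was 43.1 kb away and the nearest H3K9me3 KO peak 53.1 kb. At list density the window would hold 0.249 and 0.431 peaks, and 75.4% of 20 kb tiles held neither, so for this gene the absence of calls is the common state.

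Of the 32 KDM4B WT peaks, 3 overlapped a KO H3K9me3 peak by at least 1 bp, 1 each at Pparg, Cebpa and Cebpd, or 9.38% (95% exact binomial interval 1.98 to 25.02%). Over the whole list the share was 22.8%. In WT cells 0 of the 32 overlapped H3K9me3 (exact binomial interval 0 to 10.9%), against 0.0531% of the whole list. Without the 13 peaks at Lpl, a choice made after the values were seen, the KO share was 3 of 19, or 15.8%. Counted from the mark, 8 of the 20 KO H3K9me3 peaks overlapped KDM4B, or 40.0% (19.1 to 63.9%), against 15.7% of the whole KO list. That share rests on the Cebpa domain, which held 5 of the 8. KDM4B WT peaks covered 10.97% of the windows, and 24.2 Mb over the whole list. The part of this cover in the share was not tested. Peaks of a locus are not independent, and the intervals take in counting error alone. They therefore do not compare the windows with the whole lists.

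**Figure D4:**
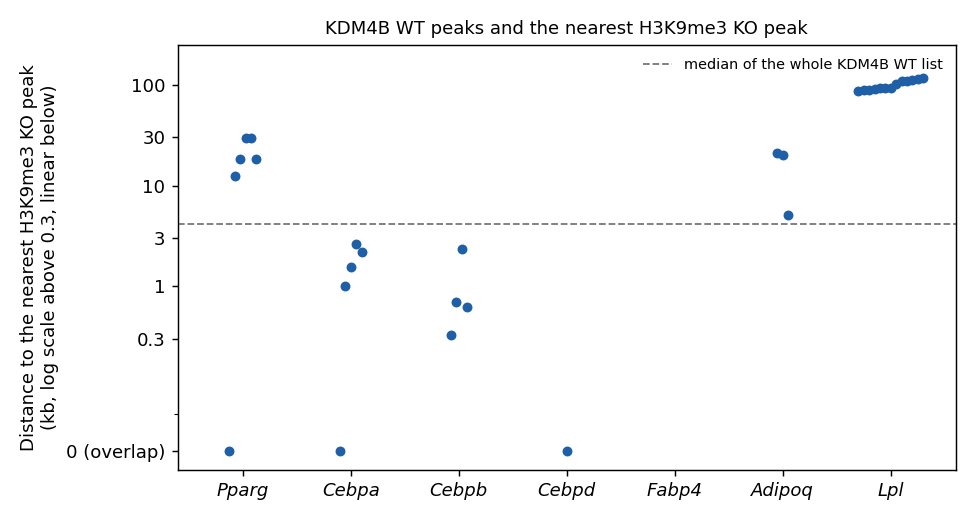
Distance in kb from each KDM4B WT peak to the nearest H3K9me3 KO peak, by gene, with the median of the whole KDM4B WT list, 4.20 kb, as a dashed line (log axis above 0.3 kb, linear below). The C/EBP peaks lie at 0 to 2.63 kb, the Adipoq peaks at 5.04 to 20.9 kb and the Lpl peaks at 86.1 to 116 kb.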

How the data were processed

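ChIP-seq peak lists of primary mouse bone marrow MSCs were used, 1 library for each of 3 antibodies in 2 genotypes. Reads were aligned with Bowtie and handled with SAMtools, and peaks called with MACS (KDM4B) or MACS2 (H3, H3K9me3), and the builds named are hg19 and mm9, per the submitters' processing notes. Chromatin fragments were 200 to 500 bp and yeast chromatin was a spike-in for H3K9me3, per the labels and the series' design text. The sources used here do not say whether it entered the calls, nor give the thresholds and depths of 5 lists. Those 5 deposited lists hold positions alone. The H3 WT table, made with MACS2 2.1.4 at a q-value limit of 0.05 from 40420466 filtered tags, also gives, per the file headers, the pileup signal, the −log10 of the p-value and q-value, and the fold enrichment as a ratio.

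Peaks were assigned to a window by midpoint. Positions are mm9 and 1-based. Overlap meant at least 1 shared bp. Covered length counts each base once. Mean densities use, per chromosome, the distance between its outermost peaks over all lists, which was also divided into adjoining tiles. Counts carry 95% exact Poisson intervals and shares 95% exact binomial (Clopper-Pearson) intervals. A density from a count of 0 is given the limit of 3 counts. Within a window, each KDM4B WT peak overlapping an H3K9me3 KO peak and the widest peak of each list were to be named by position. All peaks of lists with 5 or fewer there were also to be named. Python 3.11.15, numpy 2.4.6 and scipy 1.17.1 were used, counting was tested on simulated data, and overlaps of whole lists equalled those of bedtools 2.31.1 in all 6 comparisons. The genes, windows and groups were chosen with earlier results of these data known. No mm9 gene annotation was used here, so exons and starts were not placed, and a window can hold parts of neighbours. In GRCm38.p6 gene order these are Gm45095 and Slc7a10 for Cebpa, Tmem189 and Ptpn1 for Cebpb, Mzt2 and Spidr for Cebpd, Fabp9 and Fabp12 for Fabp4, Rfc4 and St6gal1 for Adipoq, and Ints10 and Slc18a1 for Lpl, and those of Pparg are not reported here.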

Additional observations from a re-analysis of the deposited data

How the results depend on the processing

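With 1 library per group, no library could be left out. No paired analysis was possible because each group has 1 library and no comparison was tested. Over all 7 windows, 37 values were recomputed for results above 0, and 27 stayed within 1.5 times the reported count or length, or inside the interval of the reported share. The other 10 follow from joining or removing peaks. Merging peaks within 1 kb gave 17 KDM4B WT regions, and 11 H3K9me3 KO regions covering 9471 bp with the gaps. Keeping only peaks at least as wide as their list's median left 15 KDM4B WT peaks, and 8 H3K9me3 KO peaks covering 3153 bp. Chosen after seeing the data, leaving out the Lpl window left 19 KDM4B WT peaks. Also chosen then, keeping only the widest KO peaks, about as many as the WT list holds, left 0 H3K9me3 KO peaks, 0 covered bp and an overlap share of 0%. The WT list, of like length, would place 0.116 peaks there by its mean density, so this 0 says little. Widening the windows by 10 kb on both sides gave 40 KDM4B WT and 28 H3K9me3 KO peaks and brought 1 KO peak into the Adipoq window. It also took Adipoq from 3 to 6 KDM4B WT peaks and Pparg from 2 to 4 H3K9me3 KO peaks. Narrowing by 5 kb gave 29 and 16. For single genes, 23 of 77 recomputed counts moved by more than 1.5 times or to or from 0. The 77 include counts of 0 for KDM4B WT at Fabp4 and for H3K9me3 KO at Fabp4, Adipoq and Lpl. Most settings could not raise these, so counts above 0 moved more often than the share over all 77. The KDM4B KO, H3K9me3 WT and H3 counts stayed 0 when any overlap counted, in the widened windows and with merged peaks. The other settings could not have raised them. The overlap share of KDM4B WT peaks was 6.25 to 18.8% under the other settings. Counted from the mark, the share of H3K9me3 KO peaks overlapping KDM4B ran from 28.6% in the widened windows to 60% when peaks within 1 kb counted. Unknown depth and threshold limit what a count of 0 shows.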

Other observations

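The stretches beside the windows, each as wide as its window, differed between genes. Cebpb lay in the richest surroundings, with 9 KDM4B WT peaks on the lower-coordinate side and 1 on the higher, and 7 H3K9me3 KO peaks on each side. H3K9me3 KO peaks there numbered 2.33 per 10 kb, against 2.67 in the Cebpb window itself. At Cebpa the surroundings had 1.33 per 10 kb and the window 2.67, with 1 KO peak on the lower side and 7 on the higher. Beside Pparg, KO H3K9me3 was uneven, with 1 peak in the 140 kb below the window and 11 in the 140 kb above it. Beside Lpl there were 0 KO H3K9me3 peaks on either side and 4 KDM4B WT peaks, all on the higher-coordinate side. Beside Adipoq there were 5 and 3 KDM4B WT peaks and 1 KO H3K9me3 peak on each side, and beside Cebpd 1 KDM4B WT peak and 2 KO H3K9me3 peaks, all on the lower side. Fabp4 had 0 of both on both sides. These peaks may belong to neighbouring genes, which were not placed on mm9.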
